A study of Mus musculus with 6 samples.

Results

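The 37 genes described here encode the proteins of the sarcomere and a few further products of differentiated skeletal muscle. They were chosen by name, with earlier results of these data known, and are 37 of the 49652 genes listed in the count data. By known fibre use they were divided into 12 adult genes typical of fast fibres, 8 typical of slow fibres, 11 shared by both fibre types, and 6 developmental forms that embryonic or regenerating muscle makes. The transcripts were measured by bulk RNA-seq in 6 libraries of muscle stem cells, also called satellite cells, from uninjured mouse hindlimb. All donors were 8 to 10 weeks old, belonged to the Opa1 and Pax7-CreERT2 cross, and were gavaged with tamoxifen for 5 days, with cells taken 3 days after. The 3 WT libraries came from Cre-negative animals, and the 3 KO libraries from Cre-positive animals, in which the Pax7 promoter limits Cre to Pax7-expressing cells. Cells were sorted as positive for alpha-7 integrin and VCAM and negative for Sca1, CD45 and CD31. No Cre-positive control with intact Opa1 was analysed here, so Cre itself and loss of Opa1 cannot be told apart. The labels do not give the number of animals behind a library, so p-values measure only the spread between these libraries, which may be technical.

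The sarcomere is the contractile unit of the muscle fibre. Myosin thick filaments pull on actin thin filaments, tropomyosin and the troponins make the pull depend on calcium, and titin, nebulin, alpha-actinin and myomesin hold the filaments in register between the Z-disc and the M-band. Fast and slow fibres use different genes for the same part, and developing muscle uses a further set. Muscle stem cells lie beside the fibre and build no sarcomeres themselves, but switch these genes on when they differentiate and fuse.

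The question asked of these genes is whether their transcripts differ between stem cells with and without Cre-driven loss of Opa1, which encodes a GTPase that fuses the inner mitochondrial membrane. Gene counts per library summed to 41410136 to 56606886 reads. Counting error is small for the abundant members and larger for those with few reads in a library, Actc1 among them (13 reads in KO 2). Values of the 6 libraries are given throughout in the order WT 1, 2, 3 and KO 1, 2, 3, as CPM (the count of a gene scaled to a fixed total per library) after TMM scaling, whose factors ran from 0.991 to 1.01. Opa1 had 68.2, 31.4 and 68.8 CPM across WT and 17.5, 34.4 and 27.1 across KO. That puts the library labelled WT 2 within the span of the KO libraries despite its label, and every direction below rests on the labels. Markers of the sorted cells were present, with Pax7 at 252 to 453 CPM, Vcam1 at 1032 to 1407 CPM, and Itga7 at 90.8 to 227 CPM over the libraries, against 0 to 0.651 CPM for Ptprc, which encodes CD45, 4.36 to 22.5 CPM for Pecam1, which encodes CD31, and 4.62 to 19.2 CPM for Ly6a, which encodes Sca1. Proliferation genes set libraries of both groups apart: the summed level of 16 cell cycle genes was 467, 116 and 415 CPM across WT and 982, 137 and 113 across KO. Mki67, the antigen of cycling cells, had 34.3, 1.59 and 38.1 CPM across WT and 78.7, 3.18 and 0.652 across KO.

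No sarcomere or muscle gene passed the test between KO and WT. Of the 37 genes, 35 had enough counts to be tested, and edgeR's quasi-likelihood test called 0 of the 35 at an adjusted p under 0.05. It called 0 of all 18832 genes tested, a background of 0%. At an unadjusted p under 0.05, 1 member was higher in KO, the nebulin gene Neb, and 1 was lower, the slow troponin T gene Tnnt1. The same threshold was passed upwards by 1.08% and downwards by 1.0% of all genes tested, and 1 of 35 members each way is not read as a result about them. DESeq2 and limma voom also called 0 members, while DESeq2 called 25 of 22115 genes, or 0.113%, in the whole table. The log2 fold change (KO minus WT) was positive in 12 members and negative in 23. Its median was -0.10 over the 35 members, against 0.01 over all genes tested. By class, the medians were -0.15 for the fast genes (3 positive, 9 negative), -0.31 for the slow genes (2 positive, 6 negative), -0.06 for the shared genes (5 positive, 6 negative) and 0.09 for the 4 developmental forms tested (2 positive, 2 negative). These medians hung on single libraries. For the 31 adult genes together the median was -0.10 with all libraries, 0.34 without the library labelled WT 2 and -0.45 without KO 3, and for the developmental forms it was -1.34 without KO 1. Of the 35 members, 24 turned sign in at least 1 fit that left out 1 library. In bulk RNA, fewer cells of a type and less RNA per cell cannot be told apart, and that holds for every level given here.

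**Figure D1:**
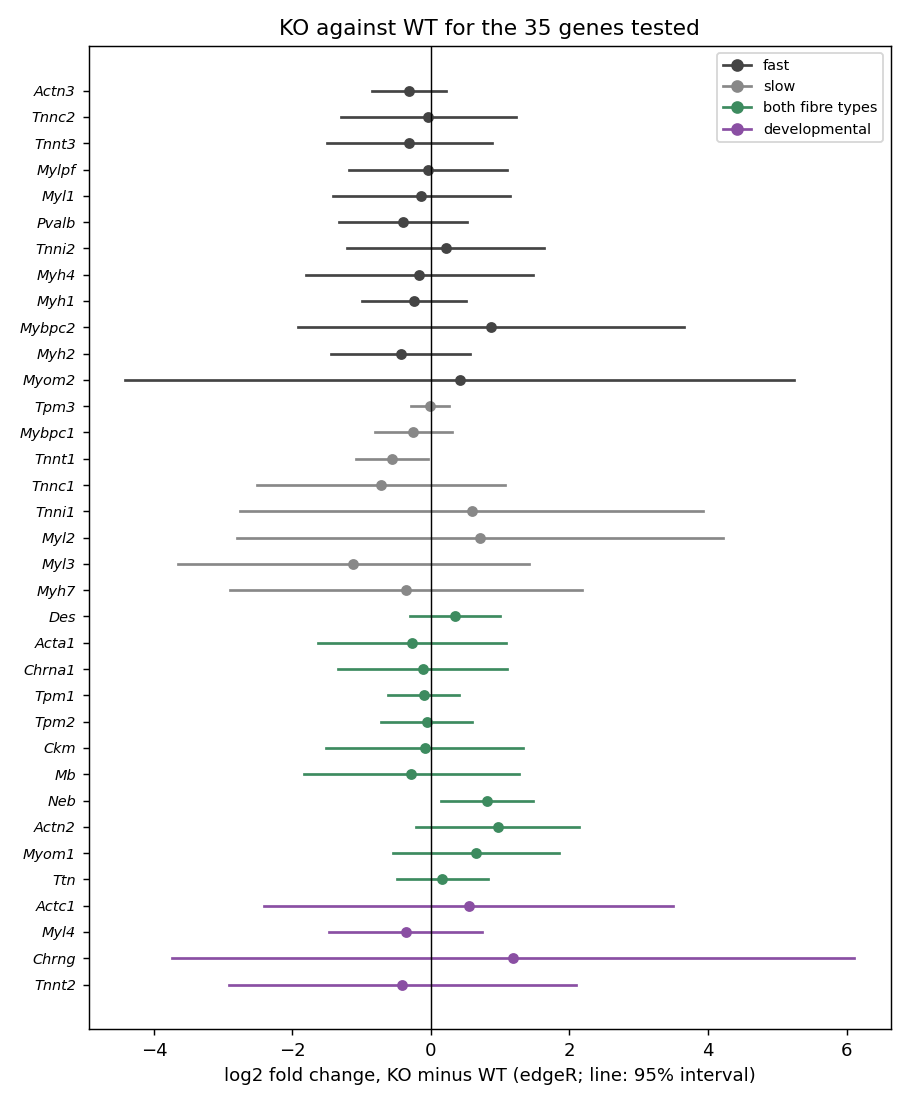
Log2 fold change of KO against WT (horizontal axis) for the 35 muscle genes tested, with the 95% interval from edgeR as a line and classes by colour. The intervals of Neb, above 0, and of Tnnt1, below 0, leave 0 out, and those of the other 33 genes include it.

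Although edgeR called 0 members, the genes were far from even over the libraries. Their highest and lowest libraries lay within the groups as much as between them. The library labelled WT 2 was the highest for 11 of the 37 genes and KO 3 for 9, and WT 3 was the lowest for 18. Where libraries tied at 0 reads, the first in order was counted as lowest, which gave Myom2 and Myh8 to WT 3. It also gave Chrng and Myh3 to the library labelled WT 2, although WT 3 was at 0 for both as well. The share of all genes highest or lowest in these libraries was not counted. The same pair of libraries, the one labelled WT 2 and KO 3, ranked above the other 4 in 15 of the 35 genes tested, or 42.9%, against 9.75% of all genes tested. This ordering was noticed in the data and is given as a description. Those 15 genes were Acta1, Ckm, Mybpc2, Myh4, Myl1, Myl2, Mylpf, Myom2, Tnnc1, Tnnc2, Tnni1, Tnni2, Tnnt3, Tpm2 and Ttn. They held 8 of the 12 fast genes, 3 of the 8 slow genes, 4 of the 11 shared genes and 0 of the 4 developmental forms. A different ordering, with WT 1, WT 3 and KO 1 above the other 3 libraries, was seen in 6 of 35 members (17.1%, against 10.8% of all genes tested), namely Actc1, Actn3, Chrna1, Myh7, Tnnt1 and Tnnt2. It was also the order of 15 of the 16 cell cycle genes.

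**Figure D2:**
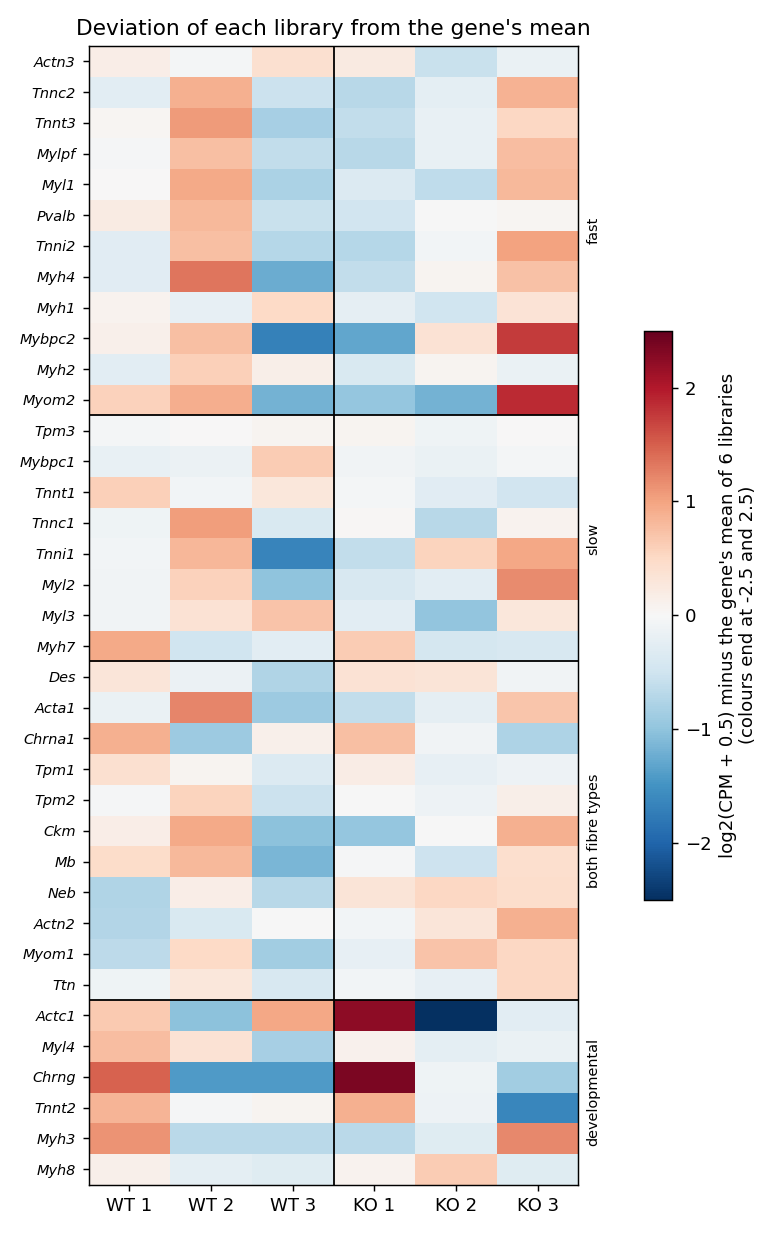
Deviation of each library (columns) from the gene's mean over the 6 libraries, in log2(CPM + 0.5), for the 37 genes (rows, grouped by class). The columns of the libraries labelled WT 2 and KO 3 are red in most fast genes, while the developmental rows are red mainly in WT 1 and KO 1.

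The sequences before the start sites of 4 genes of the first ordering and 2 developmental genes are shown, because the first 4 shared their 2 top libraries while the developmental pair was highest in KO 1. Each line gives the 250 bases 5′ of the transcription start of RefSeq's GRCm38.p6 annotation, read 5′ to 3′ on the gene's strand. Capitals mark the E-box CANNTG, the core that myogenic helix-loop-helix factors such as MyoD bind, the CArG box bound by serum response factor, and the MEF2 motif, searched on both strands. The first 4 lines are Acta1, skeletal alpha-actin (chr8:123894776-123895025, minus strand), Ckm, muscle creatine kinase (chr7:19410844-19411093, plus strand), Mylpf, the fast regulatory light chain (chr7:127211358-127211607, plus strand), and Tnnc2, fast troponin C (chr2:164779735-164779984, minus strand). The last lines are Actc1, the alpha-actin of heart and embryonic muscle (chr2:114052876-114053125, minus strand), and Chrng, the fetal gamma subunit of the acetylcholine receptor (chr1:87205561-87205810, plus strand).
Acta1: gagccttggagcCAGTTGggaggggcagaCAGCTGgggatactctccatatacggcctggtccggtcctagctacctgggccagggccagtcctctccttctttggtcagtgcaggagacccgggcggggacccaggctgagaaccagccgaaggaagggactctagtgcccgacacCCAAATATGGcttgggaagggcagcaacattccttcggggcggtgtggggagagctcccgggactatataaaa
Ckm: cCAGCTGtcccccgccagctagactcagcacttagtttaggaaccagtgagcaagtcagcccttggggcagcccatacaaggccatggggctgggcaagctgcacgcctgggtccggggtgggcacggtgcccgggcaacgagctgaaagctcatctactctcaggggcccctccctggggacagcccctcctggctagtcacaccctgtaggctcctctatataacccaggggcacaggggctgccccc
Mylpf: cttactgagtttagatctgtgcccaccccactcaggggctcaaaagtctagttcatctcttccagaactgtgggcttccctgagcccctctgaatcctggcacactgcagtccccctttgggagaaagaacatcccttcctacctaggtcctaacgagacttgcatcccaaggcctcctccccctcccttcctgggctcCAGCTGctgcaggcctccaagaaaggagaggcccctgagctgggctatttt
Tnnc2: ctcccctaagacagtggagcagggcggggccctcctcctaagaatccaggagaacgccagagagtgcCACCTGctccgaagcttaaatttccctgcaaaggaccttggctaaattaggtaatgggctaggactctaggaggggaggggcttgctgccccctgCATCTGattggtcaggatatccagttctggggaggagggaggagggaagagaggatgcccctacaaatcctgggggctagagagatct
Actc1: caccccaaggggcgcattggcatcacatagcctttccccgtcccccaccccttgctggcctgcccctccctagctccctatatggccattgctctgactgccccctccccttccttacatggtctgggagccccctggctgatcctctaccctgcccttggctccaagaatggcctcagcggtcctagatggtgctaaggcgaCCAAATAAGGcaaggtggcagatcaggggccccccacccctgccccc
Chrng: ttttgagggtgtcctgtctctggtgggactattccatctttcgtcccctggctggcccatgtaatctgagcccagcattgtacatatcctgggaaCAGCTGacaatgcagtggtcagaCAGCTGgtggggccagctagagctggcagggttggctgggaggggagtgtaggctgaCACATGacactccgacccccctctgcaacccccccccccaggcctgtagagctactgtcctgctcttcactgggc

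The Acta1 window held 2 E-boxes and 1 CArG box, at 73 bases before the start. Actc1 had 1 CArG box, at 47 bases before the start, and 0 E-boxes. Chrng held 3 E-boxes, Tnnc2 held 2, and Ckm and Mylpf held 1 each. RefSeq promoters were matched for 32 of the 37 genes, with 40 start sites among them, and Tnnt3, Tnni2, Neb, Actn3 and Myom2 were not matched. An E-box was found in 35 of the 40 windows (87.5%), against 66.2% of 32851 promoter windows of the same length. Some windows of Myh7, of Tnni1 and of Mb overlap, so the same E-box can count in more than 1 window. The CArG box was in 5 of 40 (12.5%) against 1.47% of all, and the MEF2 motif in 5 of 40 (12.5%) against 2.92% of all. The CArG box windows belonged to Acta1, Actc1, Myh4, Myl3 and Myom1, and those with the MEF2 motif to Myh1, Myh4, Myh8, Ttn and Pvalb. Both orderings of libraries occur among genes with an E-box or a CArG box. Of the genes with a MEF2 motif, Myh4 and Ttn had the first ordering, and Myh1, Myh8 and Pvalb were listed under neither. Whether a motif goes with an ordering was not tested. A match is a description of the sequence, not a binding site.

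Per length, the intermediate filament gene Des was the most abundant of the 37, at a mean of 148 CPM per kilobase of exon over the 6 libraries. Acta1 came next at 109, then Chrna1, the alpha subunit of the acetylcholine receptor, at 61.2, Tpm3 at 44.2, Actn3 at 38.4, Tpm1 at 31.2 and Mybpc1 at 27.3 CPM per kilobase. The levels spanned a wide range, down to 0.0116 CPM per kilobase for the perinatal myosin gene Myh8. The most even gene was Tpm3, whose highest library was 1.13 times its lowest, and among genes with a count in every library the least even was Actc1, at 71.0 times. Gene counts do not separate the muscle isoforms of Tpm1, Tpm2 and Tpm3 from the tropomyosins that non-muscle cells make from the same genes. Together the 37 genes summed to 2333, 2159 and 1666 CPM across WT and 2230, 1930 and 2012 across KO, so the KO sums lay inside the WT range.

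**Figure D3:**
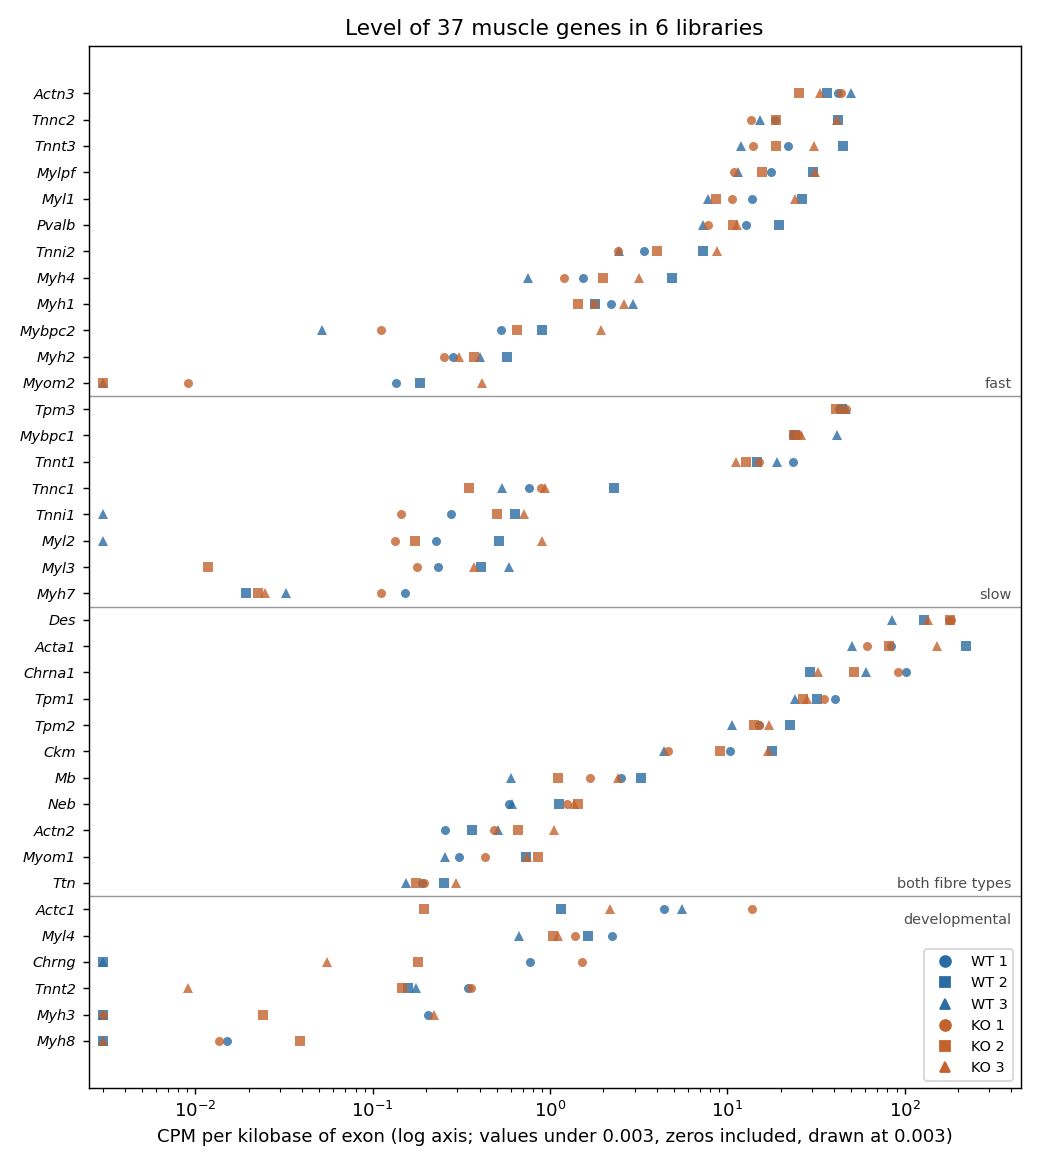
Level of the 37 genes (rows, grouped by class) in CPM per kilobase of exon on a log axis, 1 symbol per library, blue for WT and orange for KO. Des and Acta1 lie at the right and Myh8 at the left, and the WT and KO symbols interleave in nearly all rows.

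Among thick filament genes of fast fibres, the myosin heavy chain genes Myh4, Myh1 and Myh2 lie side by side on the plus strand of chromosome 11 with Myh3 and Myh8, between 67078300 and 67308634 (GRCm38). Myh4, the heavy chain of the fastest type IIb fibres, had 9.26, 29.4 and 4.53 CPM across WT and 7.25, 11.9 and 19.2 across KO. Myh1, the type IIx heavy chain, had 13.9, 11.4 and 18.6 CPM across WT and 11.2, 9.14 and 16.6 across KO. For Myh2, the type IIa chain, the values were 2.03, 4.09 and 2.86 CPM across WT and 1.81, 2.65 and 2.18 across KO. The 3 neighbours thus had different top libraries: Myh4 and Myh2 were highest in the library labelled WT 2, and Myh1 in WT 3, where Myh4 was lowest. None separated the groups, with log2 fold changes of -0.17 (SE 0.69), -0.25 (SE 0.32) and -0.44 (SE 0.42).

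The myosin mix therefore differed between libraries of one group. As a share of the 6 heavy chain genes per kilobase of exon, Myh4 made up 35.1%, 67.2% and 18.3% across WT and 36.0%, 51.0% and 50.1% across KO. Myh1 was 50.0%, 24.6% and 71.2% across WT and 52.7%, 37.2% and 41.2% across KO. The WT libraries spanned the whole KO range for both genes. These shares rest on 1015 to 2246 reads of the 6 genes per library. The slow gene Myh7 was the rest of the adult mix beside Myh2, at 0.267% to 3.46% across WT and 0.386% to 3.34% across KO.

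**Figure D4:**
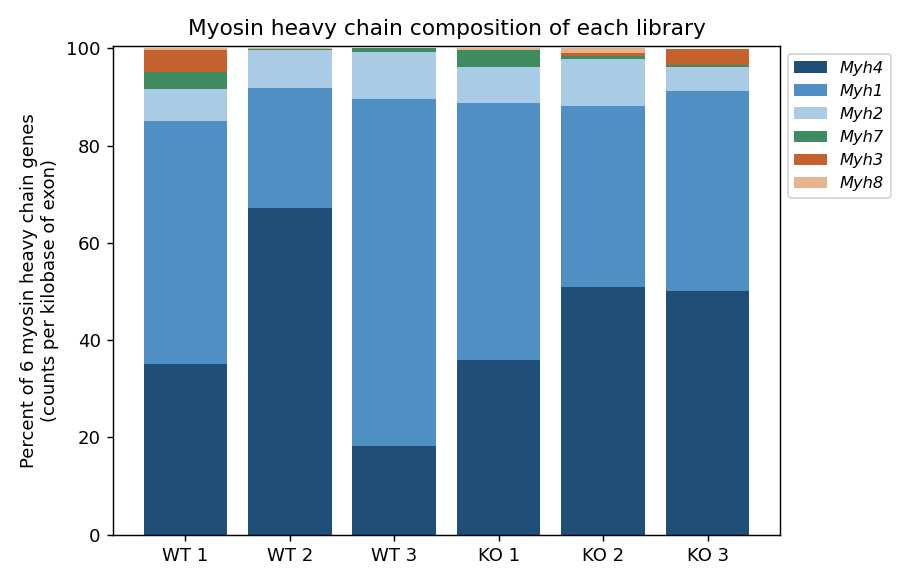
Share of each of 6 myosin heavy chain genes (stacked bars, percent of their counts per kilobase of exon, axis from 0) in each library. Myh4 takes 67.2% in WT 2 and 18.3% in WT 3, and the KO libraries lie between them.

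The fast light chains had the same pair of top libraries as Myh4. Myl1, the fast essential light chain, had 28.5, 54.6 and 16.0 CPM across WT and 22.1, 17.8 and 50.1 across KO, and Mylpf had 18.7, 32.3 and 12.2 CPM across WT and 11.7, 16.6 and 33.1 across KO. In each gene the library labelled WT 2 and KO 3 were close to each other and stood above the other 4 libraries, so the groups overlapped. Mybpc2, the fast myosin-binding protein C that brakes cross-bridges, was rarer, at 1.91, 3.26 and 0.187 CPM across WT and 0.402, 2.36 and 6.97 across KO. Its lowest library held 10 reads, and its log2 fold change of 0.86 had a 95% interval from -1.92 to 3.65. Myom2, an M-band protein of fast fibres, had 1.20, 1.63 and 0 CPM across WT and 0.0803, 0 and 3.68 across KO. Here the group means of 0.943 ± 0.844 (SD, n = 3) and 1.25 ± 2.10 CPM (SD, n = 3) rest on 3 libraries above 1 CPM, and 0 reads in WT 3 and KO 2 allow up to 0.0561 and 0.0723 CPM at 3 counts, a limit of counting alone.

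On the thin filament, the 3 fast troponins make up the calcium switch. Tnnt3, troponin T, had 34.9, 71.2 and 19.0 CPM across WT and 22.1, 29.8 and 48.9 across KO. Tnni2, the inhibitory troponin I, had 5.07, 11.0 and 3.67 CPM across WT and 3.63, 6.0 and 13.1 across KO. Tnnc2, the calcium sensor troponin C, had 14.8, 33.5 and 12.2 CPM across WT and 10.8, 15.0 and 33.2 across KO. All 3 were highest in the library labelled WT 2 and in KO 3, and their log2 fold changes of -0.31 (SE 0.50), 0.21 (SE 0.60) and -0.04 (SE 0.54) were smaller than their errors. Exons of Tnnc2 share 592 of its 800 bases with Ube2c, a cell cycle gene on the opposite strand, and the strand setting of the counting is not given in the sources used here. Ube2c had 17.4, 4.43 and 16.5 CPM across WT and 33.0, 3.74 and 4.56 across KO, an order unlike that of Tnnc2. The effect of the shared bases on the level of Tnnc2 was not tested, and the unlike order does not measure it.

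Of the remaining fast genes, Actn3 encodes the alpha-actinin of the fast Z-disc. It had 122, 105 and 144 CPM across WT and 127, 73.9 and 96.6 across KO, with WT 3 highest and KO 2 lowest, as for Myh1. Its log2 fold change of -0.32 had a 95% interval from -0.85 to 0.21. Actn3 alone carried a large part of the summed fast level of 265, 378 and 240 CPM across WT and 226, 196 and 335 across KO. Without it, an option added after the values were seen, the sums were 144, 273 and 96.8 CPM across WT and 99.1, 123 and 239 across KO. Pvalb, the calcium buffer of fast fibres, had 13.2, 20.4 and 7.57 CPM across WT and 8.05, 11.3 and 11.8 across KO. It was the library labelled WT 2 that stood highest for Pvalb, while KO 3 lay in the middle, and the log2 fold change was -0.41 with a 95% interval from -1.33 to 0.52.

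Slow fibre genes divided into an abundant and a rare set. The abundant ones were Tpm3, the slow tropomyosin, Mybpc1, the slow myosin-binding protein C, and Tnnt1. Tpm3 had 258, 271 and 283 CPM across WT and 283, 250.4 and 269 across KO, with a log2 fold change of -0.02 and the narrowest 95% interval of all members, from -0.29 to 0.26. Mybpc1 had 106, 109 and 188 CPM across WT and 113, 107 and 117 across KO, or 134 ± 46.2 for WT and 113 ± 5.07 CPM for KO (SD, n = 3 each), with WT 3 far above the rest. The remaining 5 libraries of Mybpc1 lay between 106 and 117 CPM.

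Tnnt1 was the member with the clearest lower level in KO. This slow troponin T gene lies on the minus strand of chromosome 7 from 4504570 to 4516382. Its libraries had 52.0, 32.6 and 42.1 CPM across WT and 33.2, 28.1 and 24.5 across KO, or 42.2 ± 9.72 against 28.6 ± 4.37 CPM (SD, n = 3 each). KO 1 and the library labelled WT 2 were nearly equal, so the groups overlapped. Against WT this is -0.56 on the log2 scale (SE 0.22, 95% interval -1.09 to -0.04), with an unadjusted p of 0.0395 and an adjusted p of 1.00 from edgeR's quasi-likelihood test. Leaving out single libraries moved it between -0.72 and -0.38, and the unadjusted p stayed under 0.05 only without KO 1 or without the library labelled WT 2.

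The other slow genes, most of which the heart also uses, all stayed below 3 CPM. Myh7, the slow and cardiac beta heavy chain, had 1.31, 0.167 and 0.281 CPM across WT and 0.964, 0.193 and 0.211 across KO, with WT 1 and KO 1 the highest. Myl2, the slow regulatory light chain, had 0.442, 1.00 and 0 CPM across WT and 0.261, 0.338 and 1.76 across KO. Myl3, the slow essential light chain, had 0.477, 0.835 and 1.20 CPM across WT and 0.361, 0.0241 and 0.757 across KO. Neither light chain separated the groups, and KO 2 held 1 read of Myl3. Tnni1, slow troponin I, had 0.990, 2.28 and 0 CPM across WT and 0.522, 1.81 and 2.57 across KO. For Tnnc1, the slow and cardiac troponin C, the values were 0.795, 2.38 and 0.561 CPM across WT and 0.924, 0.362 and 0.969 across KO. With counts this low, the 95% intervals were wide, for example from -2.76 to 3.93 for Tnni1 and from -3.66 to 1.42 for Myl3, and differences of several-fold either way lie within them. Among 7 markers of heart muscle, Myh6 lay between 0 and 0.0209 CPM, and Myl7 was at 0 in all 6 libraries. Tnni3 had 0.689, 0.939 and 2.67 CPM across WT and 1.165, 0.579 and 0.229 across KO, also below 3 CPM. The 7 markers, led by Tnni3 and Nppa, summed to 0.813 to 2.79 CPM across WT and 0.388 to 1.25 across KO. Of this sum 92.7% was Tnni3.

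Shared sarcomere genes varied by part. Acta1, the main actin of adult skeletal muscle, had 129, 341 and 77.3 CPM across WT and 94.7, 125 and 234 across KO. That is a 4.41-fold range over 6 libraries, with both ends, the library labelled WT 2 and WT 3, in the WT group. Its log2 fold change of -0.27 had a 95% interval from -1.63 to 1.09. Tpm1 had 264, 208 and 156 CPM across WT and 228, 174 and 183 across KO, and Tpm2 had 43.9, 65.8 and 30.7 CPM across WT and 44.1, 41.0 and 49.6 across KO. Both tropomyosins overlapped between the groups, with log2 fold changes of -0.10 (SE 0.22) and -0.06 (SE 0.28).

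Of the 35 members tested, only Neb had KO libraries entirely above WT: its 3 KO values exceeded all 3 WT values. Nebulin is the giant ruler protein of the thin filament, encoded on the minus strand of chromosome 2 from 52136647 to 52378474. It had 15.6, 29.7 and 16.2 CPM across WT and 33.1, 38.1 and 36.4 across KO, or 20.5 ± 7.95 against 35.9 ± 2.55 CPM (SD, n = 3 each), from 865 to 2066 reads. The gap between the highest WT library, the one labelled WT 2, and the lowest KO library was small beside the spread within WT. On the log2 scale KO minus WT came to 0.81 (SE 0.28, 95% interval 0.15 to 1.47), with an unadjusted p of 0.0234 and an adjusted p of 1.00 from edgeR's quasi-likelihood test. Non-overlap in this direction was found for 3.43% of all genes tested, and in the other direction for 3.12% of all genes and 0 members. Without the library labelled WT 2, Neb had a log2 fold change of 1.17, and other single omissions gave 0.65 or more, with an unadjusted p under 0.05 only without that library or without KO 1.

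Ttn, Actn2 and Myom1 did not pass the test either. Ttn, the spring that spans from Z-disc to M-band, had 22.1, 29.3 and 17.9 CPM across WT and 22.7, 20.6 and 34.5 across KO, with a log2 fold change of 0.16 (SE 0.28) that was -0.10 without KO 3. Actn2, the alpha-actinin common to all fibres, had 0.972, 1.38 and 1.93 CPM across WT and 1.83, 2.51 and 4.02 across KO. WT 3 and KO 1 overlapped for Actn2, whose log2 fold change was 0.96 (SE 0.50) with an unadjusted p of 0.0937 from edgeR's quasi-likelihood test. Myom1, which cross-links thick filaments at the M-band, had 3.20, 7.64 and 2.67 CPM across WT and 4.52, 8.97 and 7.79 across KO, a log2 fold change of 0.65 (SE 0.51). The library labelled WT 2 was among the high ones for Myom1, and without it the log2 fold change was 1.27, with an unadjusted p of 0.0282. Exons of Myom1 share 207 bases with Myl12a on the opposite strand.

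Des, which encodes desmin and links Z-discs to each other, had 664, 482 and 317 CPM across WT and 684, 674 and 505 across KO. KO 1 and KO 2 were level with WT 1, WT 3 was the lowest, and the log2 fold change was 0.35 (SE 0.28). Without WT 1 the log2 fold change of Des was 0.64, with an unadjusted p of 0.04035 from edgeR's quasi-likelihood test. Ckm, the creatine kinase that buffers ATP at the M-band, had 30.1, 52.1 and 12.8 CPM across WT and 13.5, 26.4 and 49.5 across KO. Mb, myoglobin, the oxygen store of oxidative fibres, had 3.75, 4.88 and 0.898 CPM across WT and 2.51, 1.66 and 3.63 across KO. Both metabolic genes were lowest in WT 3 and highest in the library labelled WT 2, with log2 fold changes of -0.09 (SE 0.60) and -0.29 (SE 0.66). Exons of Ckm and Mb overlap antisense genes by 451 and 412 bases.

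Chrna1 was ordered unlike most contractile genes. It had 445, 129 and 264 CPM across WT and 404, 226 and 142 across KO. WT 1 and KO 1 were the highest and the library labelled WT 2 and KO 3 the lowest, the reverse of most fast genes. The log2 fold change was -0.12 (SE 0.52).

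**Figure D5:**
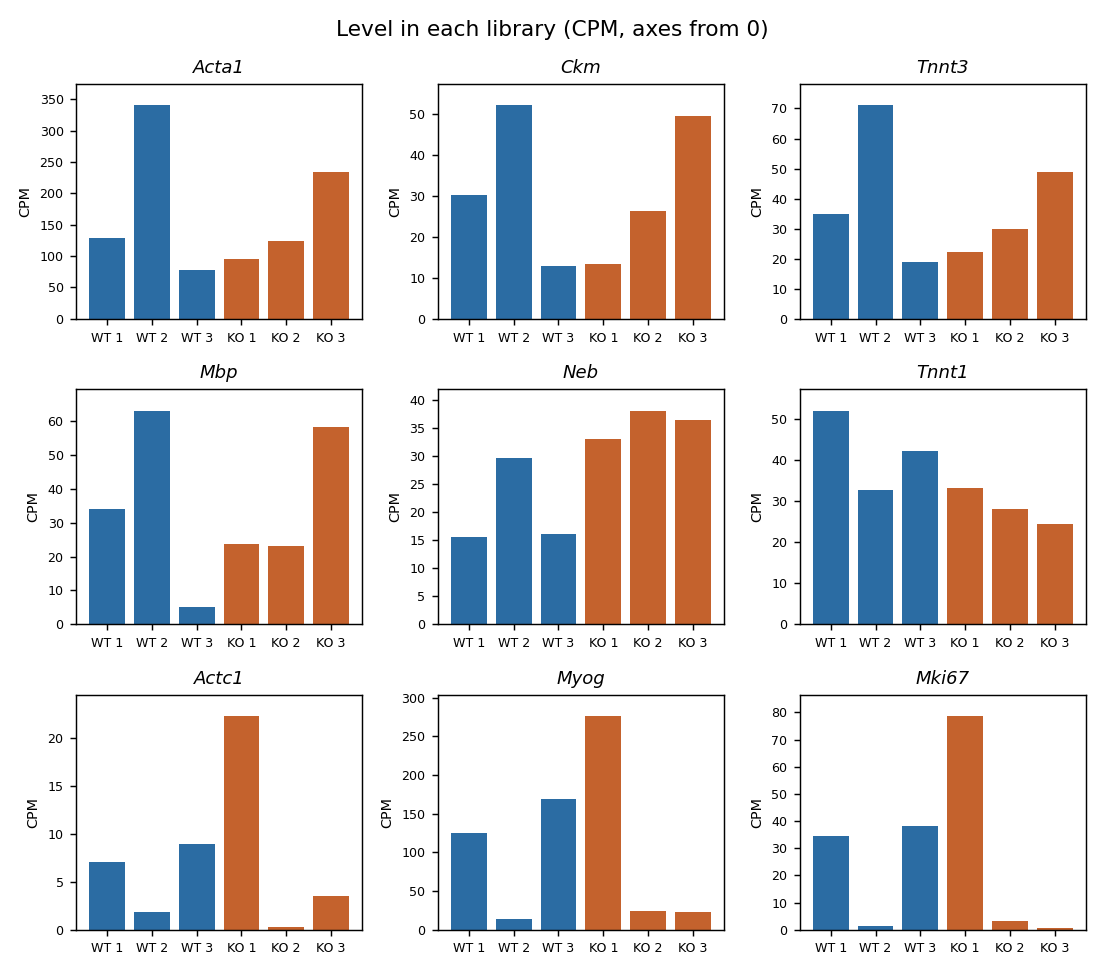
Level of 6 muscle genes and of 3 comparison genes, Mbp, Myog and Mki67, in each library (bars, CPM, every axis from 0, blue for WT and orange for KO). Acta1, Ckm, Tnnt3 and Mbp are highest in WT 2 and KO 3, while Actc1, Myog and Mki67 are highest in WT 1, WT 3 and KO 1.

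Developmental forms were low and uneven. Actc1 had 7.11, 1.86 and 8.94 CPM across WT and 22.3, 0.314 and 3.50 across KO, from 13 reads in KO 2 to 1109 in KO 1. WT 1, WT 3 and KO 1 were the 3 highest libraries, and the log2 fold change of 0.54 had a 95% interval from -2.41 to 3.50. Per kilobase of exon, Actc1 reached 0.00517 to 0.110 of the level of Acta1 in WT and 0.00239 to 0.223 in KO. Myl4, the embryonic and atrial light chain, had 10.4, 7.62 and 3.09 CPM across WT and 6.38, 4.85 and 5.14 across KO, with all KO values inside the WT range. Tnnt2, the embryonic and cardiac troponin T, had 2.69, 1.23 and 1.36 CPM across WT and 2.77, 1.13 and 0.0705 across KO. Only KO 3 stood far from the rest for Tnnt2, with 4 reads.

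Chrng had 3.20, 0 and 0 CPM across WT and 6.33, 0.748 and 0.229 across KO. WT 1 and KO 1 held nearly all of its reads, WT 2 and WT 3 by label had 0, and those zeros allow up to 0.0626 and 0.0561 CPM at 3 counts. Its log2 fold change of 1.19 had a 95% interval from -3.74 to 6.11. Myh3, the embryonic heavy chain, had 1.24, 0 and 0 CPM across WT and 0, 0.145 and 1.34 across KO, and Myh8, the perinatal one, had 0.177, 0.0209 and 0 CPM across WT and 0.161, 0.458 and 0 across KO. These 2 genes did not pass the filter on low counts, so they have no fold change. Together they made up 80, 1 and 0 reads of the 6 heavy chain genes in WT and 8, 25 and 76 reads in KO. That is 5.06% (95% exact Clopper-Pearson interval 4.03% to 6.25%) in WT 1 and 3.38% (2.68% to 4.22%) in KO 3, and 0 of 1405 reads in WT 3, which allows up to 0.214% at 3 counts. In KO 1 the share was 0.75% (0.325% to 1.47%), in KO 2 it was 2.46% (1.6% to 3.61%), and in the library labelled WT 2 it was 0.0464% (0.00117% to 0.258%). The WT libraries thus held both the highest share and the 2 lowest, with the KO shares between them. Intervals cover counting error only, as reads without molecular identifiers are not independent molecules.

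Muscle genes outside the 37 were taken from 6 related lists. The list of excitation-contraction coupling, which releases calcium onto the troponins, had 17 genes tested, 13 with a positive and 4 with a negative log2 fold change, a median of 0.09 and 0 called by edgeR. Its most abundant genes were Jsrp1 (92.0 to 179.7 CPM over the libraries), Atp2a2 (64.3 to 81.6 CPM), Atp2a1 (38.2 to 89.5 CPM) and Mrln, which encodes the calcium pump inhibitor myoregulin. Mrln had 81.4, 45.3 and 117 CPM across WT and 10.7, 20.7 and 25.7 across KO, so all KO libraries lay below all WT libraries, as for 3.12% of all genes tested. Ryr1, the calcium release channel, and Cacnb1, a calcium channel subunit, lay the other way, as for 3.43% of all genes, with 9.14 to 14.5 CPM over WT and 15.6 to 17.9 over KO for Ryr1 and 5.63 to 6.22 and 6.83 to 12.1 for Cacnb1. For Mrln the log2 fold change was -2.09 (SE 0.44). EdgeR's quasi-likelihood test gave Mrln an unadjusted p of 0.00204 and an adjusted p of 1.00. DESeq2 gave Mrln an adjusted p of 0.00225. The Z-disc and M-band partners had 27 genes tested, 16 positive and 11 negative, a median of 0.19, and 0 at an unadjusted p under 0.05. Cryab (397 to 743 CPM), Flnc (104 to 207 CPM) and Ankrd1 (68.5 to 121 CPM) overlapped between the groups. Mylk2, the kinase of skeletal myosin light chains, had 32.1, 248 and 22.5 CPM across WT and 55.6, 132 and 176 across KO, with the library labelled WT 2 and KO 3 highest.

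Energy metabolism of the fibre gave 8 positive and 8 negative of 16 genes, with a median of -0.05. Aldoa (859.9 to 1249 CPM), Pfkm (27.8 to 50.3 CPM), Pygm (24.8 to 41.9 CPM) and Eno3 (20.5 to 44.0 CPM) overlapped between the groups, and Fabp3, a fatty acid carrier, had a log2 fold change of -2.39 with an unadjusted p of 0.0113 from edgeR's quasi-likelihood test, at 2.07, 3.69 and 1.12 CPM across WT and 0.602, 0.193 and 0.511 across KO. Assembly and turnover factors, led by Hsp90aa1 (279.9 to 432 CPM), Fbxo32 (2.77 to 11.1 CPM), Trim55 (1.61 to 5.88 CPM) and Unc45b (1.43 to 4.25 CPM), gave 6 positive and 6 negative, with a median of 0.03. At the neuromuscular junction, 5 genes were positive and 4 negative, with a median of 0.02. Chrnb1 (529 to 710.1 CPM), Musk (441 to 837 CPM), Rapsn (56.8 to 119.5 CPM) and Agrn (11.0 to 18.9 CPM) overlapped between the groups. Colq, which anchors acetylcholinesterase, had 1.22, 2.02 and 1.61 CPM across WT and 0.723, 0.265 and 0.264 across KO, a log2 fold change of -1.95 with an unadjusted p of 0.0196 from edgeR's quasi-likelihood test. Chrnd, the delta subunit of the same receptor, had 2.67, 1.40 and 2.69 CPM across WT and 18.0, 1.93 and 0.810 across KO, and Chrne, the adult subunit that replaces Chrng, stayed at or below 0.229 CPM. The myogenic factors that switch such genes on gave 8 positive and 8 negative, with a median of 0.02. Myf5 (763 to 1343 CPM), Myod1 (163 to 669 CPM) and Cdon (82.9 to 141 CPM) overlapped between the groups. Myog, which marks the onset of differentiation, had 125, 14.6 and 169 CPM across WT and 276, 24.4 and 22.8 across KO, highest in KO 1, WT 3 and WT 1 as for Actc1. EdgeR called 0 genes in each of these 6 lists, with 17, 27, 16, 12, 9 and 16 genes tested in the order given. At an unadjusted p under 0.05 from edgeR's quasi-likelihood test were 3 genes, Mrln, Fabp3 and Colq, all lower in KO. That threshold was passed downwards by 1.0% and upwards by 1.08% of all genes tested. The 3 genes are not read as a result about the lists.

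The ordering with the library labelled WT 2 and KO 3 on top, found for 9.75% of all genes tested, was counted in the other lists too. Of the 16 fibre energy genes 8 had it, as did 8 of 27 Z-disc and M-band partners, 4 of 17 coupling genes, 2 of 16 myogenic factors, 1 of 12 assembly factors and 0 of 9 junction genes. Of 6 Schwann cell markers, 4 had it, Mbp and S100b among them, as did 3 of 8 endothelial markers, 3 of 8 markers of smooth muscle and pericytes, 1 of 10 stem cell markers, and 0 of 8 fibro-adipogenic, 0 of 6 tenocyte, 0 of 5 erythroid, 0 of 3 leukocyte and 0 of 1 cardiac markers tested. Mbp, a myelin protein, had 34.0, 63.1 and 5.11 CPM across WT and 23.7, 23.3 and 58.4 across KO. The summed Schwann cell level was 370 to 786 CPM across WT and 568 to 807 across KO, of which 89.4% was Pmp22, with Mbp next. Endothelial markers, led by Tek and Pecam1, summed to 107 to 177 CPM across WT and 101.1 to 167 across KO. Tek made up 67.1% of that sum and had 77.8 to 109 CPM over the libraries, against 4.36 to 22.5 CPM for Pecam1. Markers of smooth muscle and pericytes, led by Acta2 and Rgs5, summed to 624 to 1174 CPM across WT and 458 to 849.6 across KO. Of this sum 71.7% was Acta2. None of the markers of these 3 cell types was at 0 in any library, and the same held for the stem cell and fibro-adipogenic markers. Some were low: WT 3 held 1 read of the Schwann cell marker Sox10 and 5 reads of the endothelial marker Cdh5. Of the other marker lists, stem cell markers led by Chodl and Sdc4 summed to 7685 to 11380 CPM across WT and 7122 to 9370 across KO. Fibro-adipogenic markers led by Gsn and Col3a1 summed to 4471 to 6229 CPM across WT and 5793 to 6313 across KO. Gsn alone made up 67.9% of the fibro-adipogenic sum, while Pdgfra of the same list had 0.0241 to 2.56 CPM over the libraries. Of the 8 fibro-adipogenic markers, 3 had a positive and 5 a negative log2 fold change. Erythroid markers led by Hbb-bs and Hba-a1 summed to 99.1 to 423 CPM across WT and 33.0 to 257 across KO. Tenocyte markers led by Mkx and Thbs4 summed to 8.53 to 15.3 CPM across WT and 8.11 to 16.1 across KO. Leukocyte markers led by Cd68 and Lyz2 summed to 6.28 to 15.7 CPM across WT and 6.10 to 16.8 across KO. Reads without a gene feature were also most frequent in the library labelled WT 2 and KO 3 within their groups, at 11.2%, 16.3% and 14.6% across WT and 11.6%, 15.4% and 17.0% across KO. The part of other cell types, of proliferation and of such reads in the levels of the muscle genes was not tested.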

How the data were processed

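Bulk RNA-seq of 6 mouse muscle stem cell libraries (3 WT, 3 KO) was analysed from the raw whole-number read counts per gene that the authors deposited without normalization. The submitters' processing notes name Trim Galore 0.5.0 and cutadapt 2.5 as well as STAR 2.6.0c, HTSeq 0.6.1p2, DESeq2, edgeR and build GRCm38; the annotation release is not given in the sources used here. The 5 summary rows of each file stayed out of library sizes; reads without a feature were 11.15% to 17.02%, ambiguous reads 1.21% to 1.42% and reads aligned more than once 14.82% to 24.57% of the reads in a file. Reads shared by near-identical paralogs are therefore not counted, which leaves the levels of neighbouring myosin heavy chain genes uncertain to that extent.

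KO was compared with WT in R 4.3.3 by edgeR 4.0.16 (quasi-likelihood test with robust estimation, TMM scaling, filterByExpr leaving 18832 genes, no covariate, prior count 0.125). Benjamini-Hochberg adjustment ran over all 18832 genes, and 0.05 was the threshold for a call. Standard errors are the log2 fold change divided by the root of F. Symbols, positions and exon lengths come from GENCODE M21, which matched 49399 of 49652 gene rows by ID, and promoters from RefSeq (GRCm38.p6). Where a symbol had several IDs, the one with most counts was used. DESeq2 1.42.0 and limma 3.58.1 (voom) were alternatives, with other scalings and filters, a replicate block and omitted libraries. The procedure was tested on simulated counts. Python 3.11.15, pandas 2.3.3 and matplotlib 3.10.9 made summaries and figures.

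The members and lists were chosen with earlier results of these data known. All members are named, and, of other genes, the 4 most abundant of each muscle list, the 2 most abundant of each marker list, Opa1 and Mki67, except for a gene that is not reported here. Fabp3, Ryr1, Cacnb1, Colq, Chrnd, Chrne, Myog, Ube2c, Pax7, Vcam1, Itga7, Ptprc, Ly6a, Myh6, Myl7, Myl12a, S100b, Pdgfra, Sox10 and Cdh5 were named after their values were seen. One related gene of the assembly list, Murc, had no matched ID and is not analysed here.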

Additional observations from a re-analysis of the deposited data

How the results depend on the processing

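No member was called by edgeR, DESeq2 or limma voom under any alternative run, and the count of all genes called was 0 in every one but DESeq2, with 25. Members at an unadjusted p under 0.05 numbered 2, with a range of 0 to 3 over omissions of 1 library each (0 without WT 3, KO 2 or KO 3, and 3 without the library labelled WT 2 or without KO 1) and 5 without the library labelled WT 2 and KO 1 together. Those 5 had log2 fold changes of -0.64 (Actn3), -0.95 (Chrna1), 1.51 (Myom1), 1.23 (Neb) and -0.84 (Tnnt1), with adjusted p of 0.417 or more. Of the 3 without KO 1, Actn3 had -0.53, and without the library labelled WT 2 Myom1 had 1.27. Without WT 1 the 2 members were not Neb and Tnnt1 but Des, with 0.64, and Chrng. The median log2 fold change of the 31 adult fibre genes, -0.10, ranged from -0.45 without KO 3 to 0.34 without the library labelled WT 2 and was 0.46 without the latter and KO 1 together. That of the 4 developmental forms, 0.09, ranged from -1.34 without KO 1 to 0.53 without KO 3, and was -1.74 without the library labelled WT 2 and KO 1 together; the cause was not tested. Over single omissions, 24 of 35 members turned sign in at least 1 fit, with these ranges: Acta1 -0.74 to 0.55, Actc1 -1.63 to 1.08, Chrna1 -0.60 to 0.39, Chrng -1.13 to 1.72, Ckm -0.67 to 0.47, Mb -0.73 to 0.16, Mybpc1 -0.398 to 0.064, Mybpc2 -0.37 to 1.63, Myh4 -0.60 to 0.89, Myh7 -1.52 to 1.02, Myl1 -0.73 to 0.43, Myl2 -0.68 to 1.82, Myl4 -0.72 to 0.03, Mylpf -0.58 to 0.40, Myom2 -4.43 to 1.06, Tnnc1 -1.07 to 0.15, Tnnc2 -0.65 to 0.54, Tnni2 -0.45 to 0.80, Tnnt2 -1.56 to 0.15, Tnnt3 -0.68 to 0.32, Tpm1 -0.28 to 0.10, Tpm2 -0.29 to 0.27, Tpm3 -0.060 to 0.014 and Ttn -0.10 to 0.37. For Chrng no value is given without WT 1, since all remaining WT libraries are then at 0. Leaving out the library labelled WT 2 and KO 1 together turned 12 members: Acta1 to 0.80, Actc1 to -2.06, Myh4 to 1.17, Myl1 to 0.61, Mylpf to 0.69, Tnnt3 to 0.55, Tnnc2 to 0.83, Tpm2 to 0.28, Ckm to 0.82, Mb to 0.19, Pvalb to 0.14 and Chrng to -1.72. Limma voom turned Actc1 to -0.66, Myh4 to 0.20, Tnnc2 to 0.005, Tpm2 to 0.022, Myom2 to -0.37 and Mb to 0.009. In the fit with a replicate block, 0 genes and 0 members were called and 2 members were at an unadjusted p under 0.05; it turned Actc1 to -0.76, Myh4 to 0.085, Tpm2 to 0.005 and Myom2 to -2.95. The labels do not say that the replicate numbers pair the libraries, so they were not taken to do so. The same-number libraries correlated in their deviations from the group means by 0.38, 0.18 and -0.07. Libraries of different numbers correlated by -0.415 (the library labelled WT 2 with KO 1) to 0.318 (the library labelled WT 2 with KO 3). Other scaling and other filters turned 0 members. Fewer than 100 reads in at least 1 library (Actc1, Actn2, Chrng, Mb, Mybpc2, Myh2, Myh3, Myh7, Myh8, Myl2, Myl3, Myom2, Tnnc1, Tnni1, Tnnt2) limit the precision by depth as well.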
